A study of Mus musculus with 42 samples.

Results

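The canonical histone genes are the rows of the deposited mouse expression table whose gene name starts with Hist1h, Hist2h, Hist3h or Hist4h, and 67 of the 19151 rows met that rule. By histone class there were 6 H1, 18 H2A, 18 H2B, 12 H3 and 13 H4 genes. Among the 18 H2B rows, Hist3h2bb.ps is annotated as a processed pseudogene. The table held 42 RNA-seq libraries of microglia, the resident immune cells of the brain, sorted as CD11b+CD45+ and then as Ki67+ (proliferating) or Ki67- cells from male mice, with up to 400 cells per library. The mice were wild-type (WT) C57BL/6 or carried the APP/PS1 transgenes, which cause amyloid deposition in the brain, and were 4, 6 or 12 months old. At 4 months there were 5 WT Ki67+, 5 WT Ki67-, 4 APP/PS1 Ki67+ and 4 APP/PS1 Ki67- libraries. At 6 months there were 2, 3, 2 and 2 libraries in the same order, and at 12 months 4, 3, 4 and 4. The cells of every group were fixed, stained inside the nucleus for the Ki67 protein and reverse cross-linked before RNA was taken, and the labels do not say which libraries came from the same mouse, so the p-values measure the spread between these libraries only.

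Canonical histones are the proteins that package DNA into nucleosomes: H2A, H2B, H3 and H4 form the core around which DNA is wound, and the linker histone H1 binds the DNA between cores. Their genes lie in clusters of many near-identical copies, often as H2A and H2B genes that start back to back, and are transcribed mainly during S phase, when new DNA has to be packaged. Their replication-dependent mRNAs are unusual in ending with a stem-loop in place of a poly(A) tail, although many of these genes can also make longer, polyadenylated transcripts. How the cDNA was primed is not given in the sources used here, so which of the 2 kinds of transcript the libraries captured cannot be told.

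The stem-loop was searched for in the GENCODE transcripts of each gene (GRCm38 build), as a 6-base stem closing a 4-base loop within 100 bases of the stop codon, and was found in 46 of the 67 genes. Many of the others, such as Hist1h1b and Hist1h2bn, have an annotated transcript that ends at the stop codon, so a stem-loop could not be found there. The sequence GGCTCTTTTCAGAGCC was the one in 26 of these 46, in classes H1, H2A, H2B and H3, whereas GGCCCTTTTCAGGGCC was the one in 7, all of class H4. The stem-loops of 7 genes that carry the results below are shown 5′ to 3′ with their flanks in lower case and the stem and loop in capitals, since they show how alike the members are at their mRNA end and how H4 differs there from the other classes.
Hist1h1c: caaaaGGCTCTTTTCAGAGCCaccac
Hist1h2ae: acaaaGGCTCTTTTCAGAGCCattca
Hist1h2bg: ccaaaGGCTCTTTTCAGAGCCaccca
Hist1h3e: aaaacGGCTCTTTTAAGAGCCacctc
Hist1h4j: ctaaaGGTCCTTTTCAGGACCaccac
Hist1h4m: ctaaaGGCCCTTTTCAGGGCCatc
Hist1h4n: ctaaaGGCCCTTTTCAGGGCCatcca
The stem-loop (capitals) of Hist1h1c lies at chr13:23739512-23739527 on the plus strand and that of Hist1h2ae at chr13:23570668-23570683 on the minus strand. Those of Hist1h2bg (chr13:23571843-23571858, plus strand) and Hist1h3e (chr13:23561903-23561918, minus strand) come from the same cluster on chromosome 13. So do those of Hist1h4j (chr13:21735437-21735452, plus strand), Hist1h4m (chr13:21812129-21812144, plus strand) and Hist1h4n (chr13:21831798-21831813, minus strand). The annotated transcript of Hist1h4m ends 3 bases after its stem-loop, which is why its printed flank is short.

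The values are on a log2-like scale and were deposited after normalization and removal of 10 surrogate variables, so depth is unknown and levels are not per gene length. They are called levels below, and differences between groups are in log2 units with their standard error (SE). The median of the 67 mean levels was 6.60 against 7.43 over all genes, with class medians of 7.15 for H1, 6.57 for H2A, 6.61 for H2B, 6.52 for H3 and 7.01 for H4. The lowest histone mean, 6.37, lay at the floor of the table, where the lowest gene mean was 6.37 and the 5th percentile 6.40. Single levels below 6.37 are printed for several genes further on, and differences that rest on them are uncertain in size. A total of 39 histone genes (58.2%) reached a mean level of 7 in at least 1 group, against 77.9% of all genes, and these 39 were tested. The other 28 were not tested. In each class, 4 of 6 H1, 8 of 18 H2A, 9 of 18 H2B, 7 of 12 H3 and 11 of 13 H4 genes reached 7. Just inside the threshold were Hist1h4a (highest group mean 7.03), Hist1h3a (7.04) and Hist1h2ad (7.15), and just outside it were Hist2h2ac (6.99), Hist1h2aa (6.99893) and Hist2h3b (6.99988). Since a gene could pass through the 1 group in which it was highest, counts over the 39 are given as descriptions. This holds most for the 7 tested genes that reached 7 in exactly 1 group, among them Hist1h2bj (WT Ki67- at 12 months), Hist1h2bn (WT Ki67+ at 6 months) and Hist1h4m (WT Ki67+ at 12 months). Comparisons of these genes that include that group are descriptions too, whatever their p. Hist1h4j, Hist1h2ao (2 groups each), Hist1h1b (3) and Hist1h3f (6) reached 7 only in Ki67+ groups. Their Ki67 comparisons, and others that include those groups, are therefore descriptions as well. Hist1h3c and Hist2h3c2 reached 7 only in the 2 WT groups at 12 months, and their comparisons that include those groups are descriptions too.

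Only 6 of the 67 reached 7 in all 12 groups, and 6 had a mean level of at least 8 over the 42 libraries. Among the linker histones Hist1h1c was highest, with a mean level of 9.45 ± 0.61 (SD, n = 42), followed by Hist1h1e at 7.71 and Hist1h1d at 7.66. For H2A, the histone of the outer dimers with H2B, Hist1h2ap (9.53 ± 0.57), Hist2h2aa1 (9.16 ± 0.38) and Hist3h2a (9.02 ± 0.49) led, and neighbours in that order differed by less than 1 SD. The highest level of any member was that of the H2B gene Hist1h2bc (10.00 ± 0.51), well above Hist1h2be (7.62) and Hist1h2bg (7.40) on the same scale. No H3 gene had a mean of 8, the 3 highest being Hist1h3e (7.56), Hist1h3d (7.22) and Hist1h3f (7.01). Among the H4 genes Hist1h4d (8.02 ± 0.54) led, with Hist4h4 (7.65) and Hist1h4i (7.45) next. All of these are levels not corrected for length, so the order between genes is a description of the table only.

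**Figure D1:**
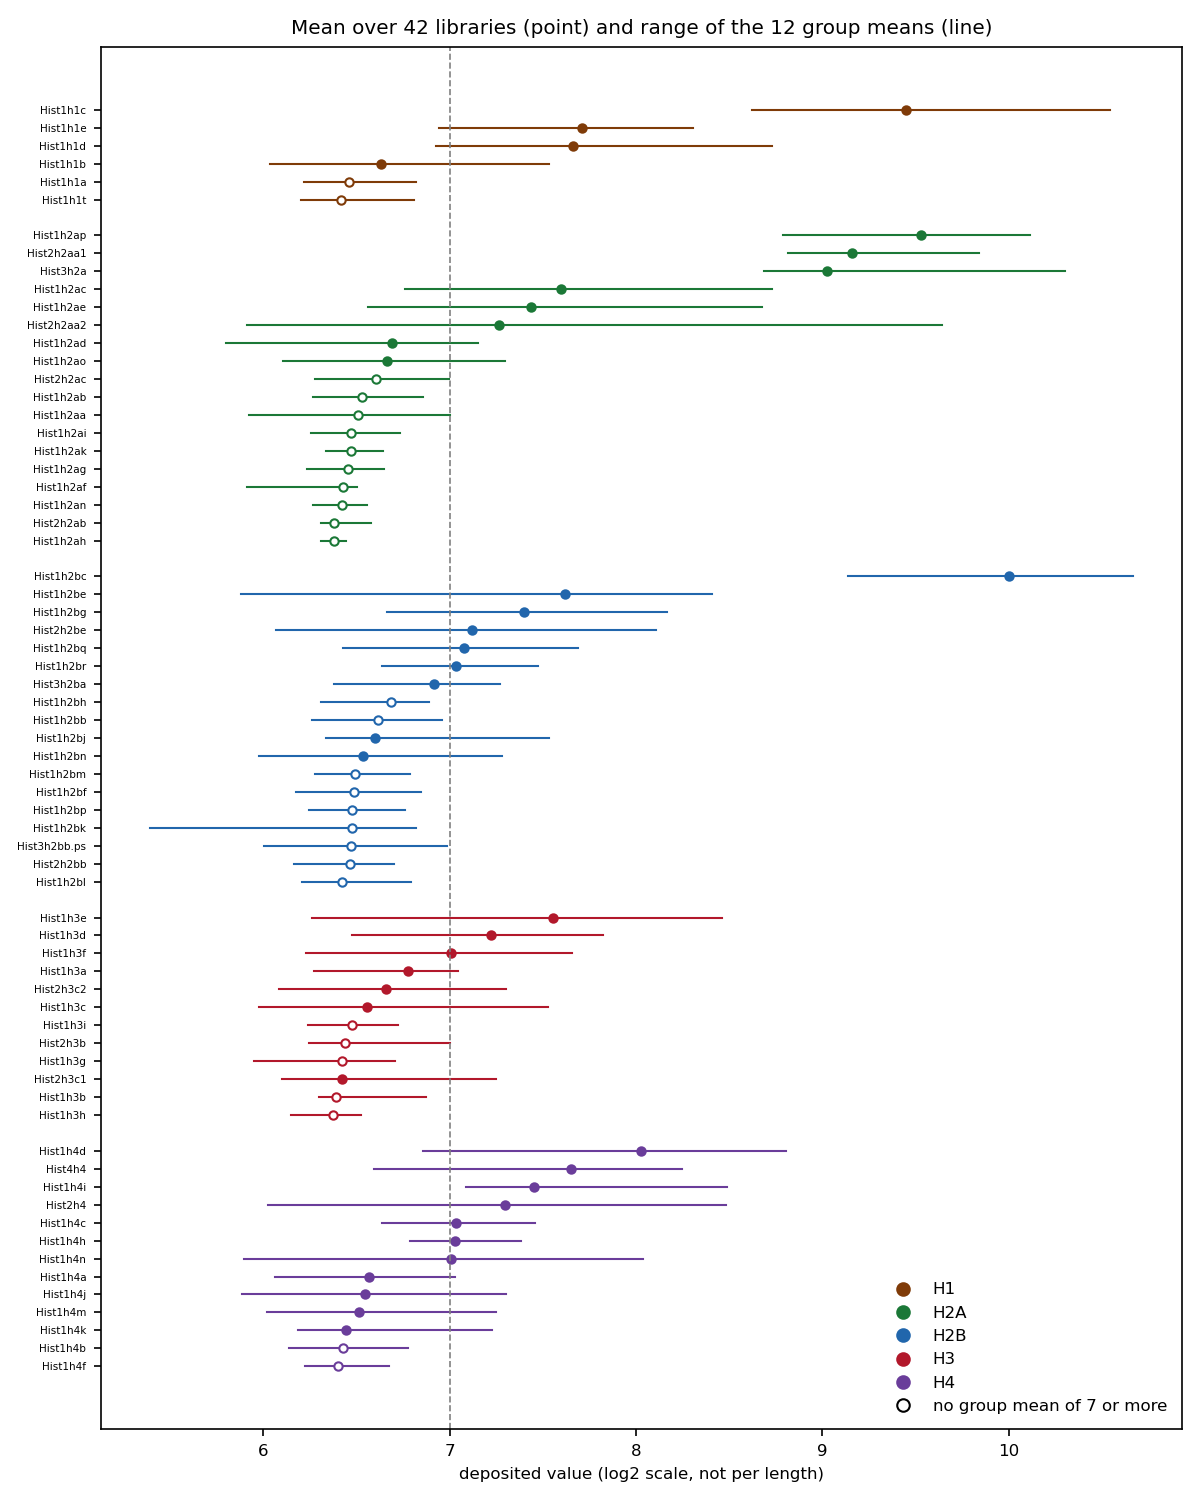
Level of each of the 67 histone genes (x axis, deposited log2-scale value, not per length), grouped by histone class (colours). Points are means over 42 libraries, lines span the 12 group means, and open points mark the 28 genes whose group means all stay under 7 (dashed line). Only 6 genes have a mean of at least 8.

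Levels went with the annotated transcript end and length. The 23 genes whose transcript runs over 100 bases past the stem-loop had a median mean level of 7.40, and 21 of them (91.3%) were tested. The 23 genes ending within 100 bases had a median of 6.56 (47.8% tested), and the 21 with no stem-loop in the annotated transcript one of 6.47 (33.3% tested). Many of these 21 have an annotated transcript that ends at the stop codon, so they are not shown to lack a stem-loop. Across genes, the mean level correlated with annotated transcript length (Spearman's rho = 0.65, n = 67) and with the bases after the stem-loop (rho = 0.47, n = 46). Genes of 1 family are not independent points, longer transcripts gather more reads when a value is not per length, and the share of 31-base words found in no other transcript also went with the level (rho = 0.38, n = 67), so these features cannot be told apart here. Exceptions were Hist1h2ap and Hist2h2aa1, with 3 and 35 annotated bases after the stem-loop and mean levels above 9. Another was Hist1h2bc, with 742 bases after its stop codon and no stem-loop found within the 100 bases searched.

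**Figure D2:**
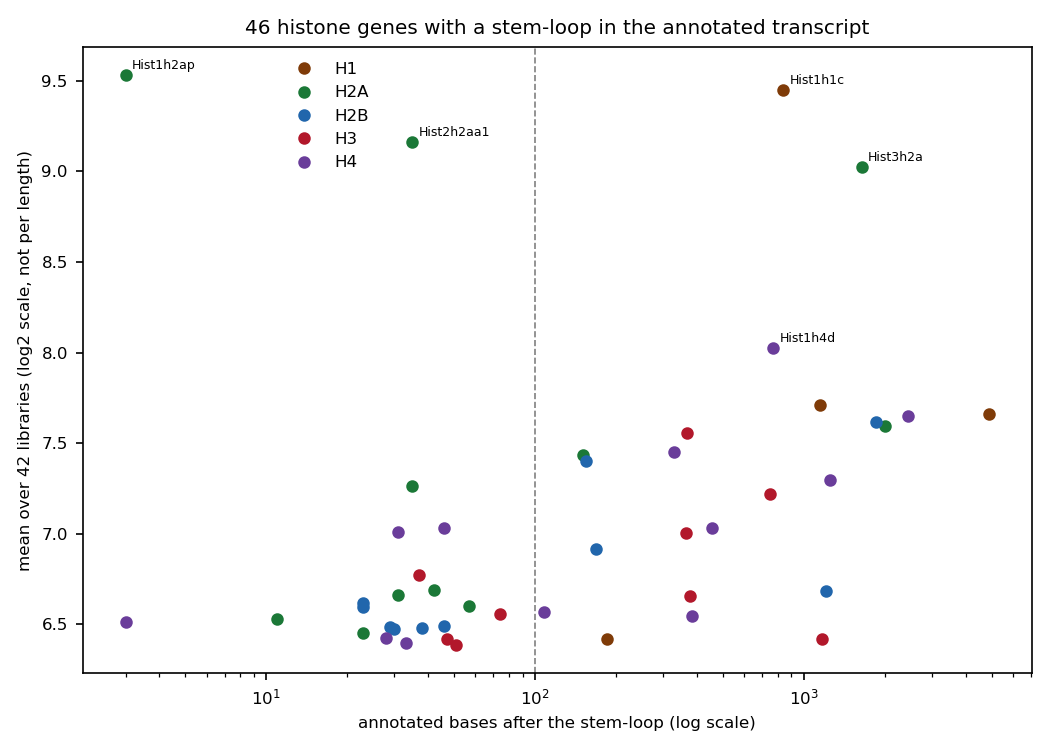
Mean level over 42 libraries (y axis, log2 scale, not per length) against annotated bases after the stem-loop (x axis, log scale) for the 46 histone genes with a stem-loop, coloured by class; the dashed line is at 100 bases. Genes with a mean of at least 8 are named, and 21 of the 23 to the right of the line reached 7 in a group.

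Copies within a class limit what a single row can say. All 13 H4 genes encode 1 protein of 103 residues, 9 of the 18 H2A genes encode 1 protein of 130 residues, and 7 of the 12 H3 genes share 1 of 136, whereas the 6 H1 proteins all differ. At the RNA level, Hist2h2aa1 and Hist2h2aa2 (chr3:96245497-96246082 and chr3:96239749-96240276) had 0% of 31-base words of their own, Hist1h4m 8.3% and Hist1h4n 12.5%, against 66.5% for Hist1h2bc, 70.6% for Hist1h4j and 96.1% for Hist1h1b. Low values were also found for Hist1h2bq (1.7%), Hist1h2ao (6.2%), Hist1h2ap (6.6%), Hist1h2bn (12%) and Hist1h3e (15.6%). Hist2h2aa1 has 556 words and shares 498 with Hist2h2aa2, which has no further ones. The remaining words of Hist2h2aa1 also occur in transcripts of other genes. For the others few words are their own, so the single rows of all these genes are uncertain in level and in difference. Strand-specific counting is not stated either, so reads of Hist1h2ae cannot be told from those of the opposite-strand gene Gm44394, nor reads of Hist3h2a from those of Gm44313 and, on its own strand, Trim17, where these overlap.

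Before the comparisons, 2 groups stood apart. WT Ki67- replicates 1 and 2 at 4 months differed by a root mean square of only 0.0317 over all genes, and WT Ki67- replicates 1 to 3 at 12 months by 0.0348 to 0.0810, while all other pairs within a group differed by 0.153 to 0.658. The median SD of the tested histone genes was 0.0363 in WT Ki67- at 12 months and up to 0.368 in other groups. After the removal of surrogate variables, these 5 libraries kept 0.212% to 3.73% of the directions in which each could deviate from its group mean, and WT Ki67+ replicate 1 at 12 months kept 1.79%. Whether the likeness came from that removal or from 1 library deposited more than once cannot be told apart, so the SDs of these groups may be too small. For the histone genes, results with the near-identical libraries are therefore also given with each such set counted as 1 sample, which left 39 samples. Mki67, which encodes the protein used for sorting, was higher in Ki67+ cells only in APP/PS1 at 4 months (log2 difference 1.26 ± 0.39 SE, adjusted p = 0.0222) and lower in WT at 12 months (−1.09 ± 0.42, adjusted p = 0.0362). Its other 4 differences ran from −0.23 to 0.82 and did not pass. The Mki67 call in WT at 12 months rests on the near-identical Ki67- libraries (SD 0.019). It was not recomputed with these counted as 1 sample. All adjusted p-values are from limma with Benjamini-Hochberg adjustment over the 14910 genes tested.

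The main comparison asked which histone genes differed between proliferating and non-proliferating microglia of 1 genotype and age. It gave differences in both directions. The H4 gene Hist1h4j, the H2A gene Hist1h2ae and the H3 pair Hist1h3e and Hist1h3f were higher in Ki67+ cells, and the H4 gene Hist1h4n and the H2B genes Hist1h2bc and Hist1h2be were lower. Of these, Hist1h4j and Hist1h3f reached a mean of 7 only in Ki67+ groups, so their calls are descriptions. In WT at 4 months, 9 of the 39 were higher and 3 lower, where 19.3% and 14.5% of all genes were called higher and lower. At 4 months in APP/PS1, 3 were higher and 3 lower (12.3% and 9.24% of all genes). In WT at 6 months, 7 were higher and 5 lower (17.8% and 19%). With 2 libraries a side, in APP/PS1 at 6 months limma called no member in either direction (5.21% and 2.6%), and 5 members had an unadjusted p under 0.05. At 12 months in WT, 9 were higher and 8 lower (26.2% and 20.1%), and in APP/PS1 at 12 months 5 were higher and 1 lower (10.6% and 7.24%). These shares lay on both sides of the background, and over the 6 comparisons, which share no library, 15 of the 39 (38.5%) were never called against 29.7% of all genes. With the near-identical libraries counted as 1 sample, 7 were higher and 3 lower in WT at 4 months (17.5% and 12.9% of all genes), and 5 were higher and 3 lower in WT at 12 months (13.3% and 9.16%). Ki67+ and Ki67- values did not overlap for 13, 13, 21, 21, 31 and 13 of the 39 in the 6 comparisons in that order. The share over all genes was not computed, so an absence of overlap is a description only.

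The median difference over the 39 was 0.14, 0.17, −0.15, 0.14, 0.13 and 0.16 in the 6 comparisons in that order, and over all genes 0.06, 0.05, −0.03, −0.00, 0.09 and 0.05. Subtracting each library's median moved all genes by −0.22 to 0.02 and changed the members called higher and lower to 4 and 4, 1 and 5, 7 and 5, 0 and 0, 7 and 11, and 4 and 3, with no called member changing sign. The share of all calls that were higher moved from 57.1% to 42.6%, 57.1% to 42.1%, 48.3% to 49.9%, 66.8% to 57.3%, 56.6% to 41.7% and 59.3% to 37.7%. Single libraries moved some counts by over 1.5 times. Lower calls in WT at 4 months came to 5 without WT Ki67- replicate 4. For APP/PS1 at 4 months, higher calls came to 1 without Ki67- replicate 1, 2 or 3 or Ki67+ replicate 2 or 4, and lower calls to 5 without Ki67+ replicate 2. In WT at 6 months, 4 were higher and 2 lower without Ki67+ replicate 2, and 3 lower without Ki67- replicate 2, and in APP/PS1 at 6 months 1 was higher without Ki67- replicate 2. Lower calls in APP/PS1 at 12 months came to 2 without Ki67- replicate 1, Ki67- replicate 3 or Ki67+ replicate 3.

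**Figure D3:**
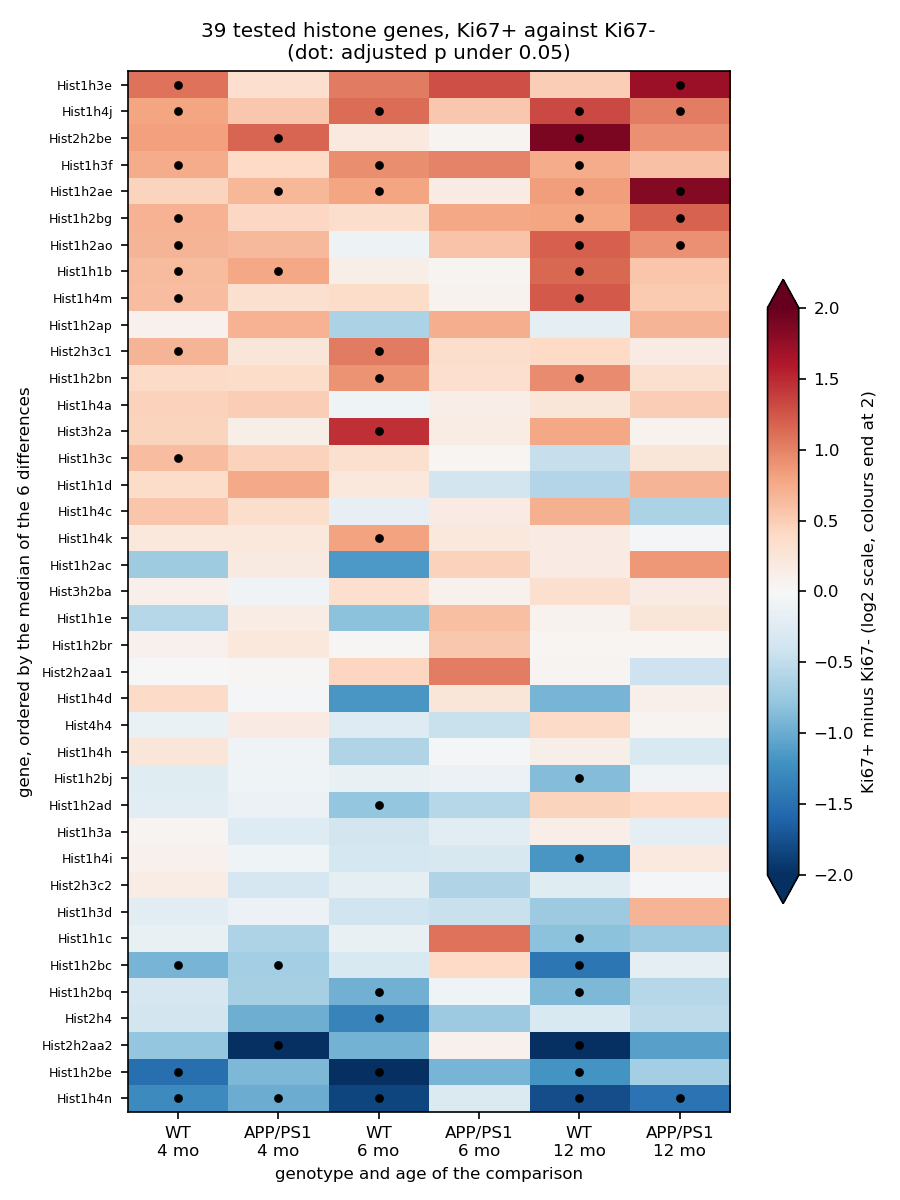
Difference Ki67+ minus Ki67- (colour, log2 scale, ending at 2 and −2) for the 39 tested histone genes (rows, ordered by their median) in the 6 genotype and age comparisons (columns). Dots mark an adjusted p under 0.05. 14 genes have dots on the higher side only and 10 on the lower side only. Of all 14910 genes tested, 5847 were called higher and 4990 lower at least once.

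A gene could be called in up to 6 comparisons. None of the 39 was called higher in 1 comparison and lower in another (348 of all 14910 genes were). A total of 14 were called higher at least once and 10 lower at least once. Of all 14910 genes, 5847 were called higher and 4990 lower at least once, both larger shares than among the 39. Being higher in 3 or more comparisons was as frequent among the members (6, 15.4%) as among all genes (14.4%), and being lower in 3 or more held for 3 (7.69%) against 11.2%. The 6 were Hist1h4j and Hist1h2ae (4 comparisons each) and Hist1h3f, Hist1h2bg, Hist1h2ao and Hist1h1b (3 each), of which Hist1h2ao was named after its values were seen. All but Hist1h2ae and Hist1h2bg reached a mean of 7 only in Ki67+ groups, so this count of 6 is a description. The 3 lower ones were Hist1h4n (5 comparisons), Hist1h2be and Hist1h2bc (3 each). With library medians subtracted, only Hist1h4j (4) and Hist1h2ae (3) were higher in 3 or more, Hist1h1b being called 2 times and Hist1h3f, Hist1h2bg and Hist1h2ao 1 time each. In that setting 4 genes were lower in 3 or more, the same 3 and Hist1h2bq (4), and 1 gene, Hist1h3c, was called in both directions. By class, 1 of 4 H1, 3 of 8 H2A, 3 of 9 H2B, 4 of 7 H3 and 3 of 11 H4 genes were higher at least once, and 1 H1, 2 H2A, 4 H2B and 3 H4 genes were lower at least once. These small class counts stand beside the same all-gene counts and are descriptions.

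Among the linker histones, Hist1h1b (chr13:21779883-21780625, minus strand) was the one called higher in Ki67+ cells. It reached a mean of 7 only in Ki67+ cells (WT at 4 and 12 months, APP/PS1 at 4 months), so its calls are descriptions. At 12 months its levels were 7.59, 7.63, 7.50 and 7.40 in WT Ki67+ and 6.42, 6.41 and 6.32 in WT Ki67-, without overlap, a log2 difference of 1.15 ± 0.24 (SE, adjusted p = 0.000305, and 0.0177 with the near-identical libraries counted as 1). Its levels in APP/PS1 at 4 months were 7.08, 6.60, 7.05 and 7.58 in Ki67+ and 6.23, 6.29, 6.38 and 6.34 in Ki67- libraries (difference 0.77 ± 0.22, adjusted p = 0.0127). Again every Ki67+ library lay above every Ki67- library. In WT at 4 months the difference was 0.63 ± 0.20 (adjusted p = 0.0145) with overlapping values. The most abundant H1 gene, Hist1h1c, differed the other way, with levels of 9.37, 9.35, 9.39 and 9.42 in WT Ki67+ against 10.16, 10.20 and 10.22 in WT Ki67- at 12 months (−0.82 ± 0.30, adjusted p = 0.0274). Hist1h1c was among the genes not called with the near-identical libraries counted as 1. Hist1h1d and Hist1h1e were called in none of the 6, with differences from −0.59 to 0.75 and from −0.83 to 0.60.

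The H2A gene Hist1h2ae and the H2B gene Hist1h2bg start back to back and both were higher in Ki67+ cells. For Hist1h2ae in APP/PS1 at 12 months, Ki67+ levels were 8.73, 9.06, 8.22 and 8.70 and Ki67- levels 6.67, 6.50, 6.89 and 7.31, a difference of 1.83 ± 0.23 (SE, adjusted p = 4.03e-06). WT levels at 12 months were 8.28, 8.06, 8.12 and 8.57 against 7.49, 7.41 and 7.35 (0.84 ± 0.25, adjusted p = 0.00759). Neither pair of groups overlapped. With the near-identical libraries counted as 1, Hist1h2ae was not among the genes called in WT at 12 months. It was also called in WT at 6 months (0.80 ± 0.30, adjusted p = 0.0371) and in APP/PS1 at 4 months (0.67 ± 0.23, adjusted p = 0.0378), but the last call was lost without Ki67- replicate 1, 2 or 3 or Ki67+ replicate 2, 3 or 4 (adjusted p from 0.0542 to 0.104). In the other 2 comparisons its differences were 0.45 and 0.17.

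For Hist1h2bg, APP/PS1 Ki67+ levels at 12 months were 8.07, 8.58, 8.09 and 7.93, all above the Ki67- levels of 6.80, 6.95, 6.60 and 7.63 (1.18 ± 0.28, adjusted p = 0.00523). WT levels at 12 months were 8.05, 8.12, 8.10 and 8.07 against 7.22, 7.29 and 7.38 (0.78 ± 0.31, adjusted p = 0.0375), a call not made with the near-identical libraries counted as 1. In WT at 4 months 1 Ki67- library (7.45) lay among the Ki67+ levels of 8.48, 7.73, 7.34, 7.35 and 7.49, and the difference was 0.69 ± 0.25 (adjusted p = 0.0365), again not called in that setting.

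The 179 bases between the RefSeq starts of Hist1h2ae (minus strand) and Hist1h2bg (plus strand), chr13:23571221-23571399 of GRCm38.p6 read on the plus strand, are shown because both genes of the pair were higher in Ki67+ cells. Capitals mark CCAAT on either strand, ATTTGCAT and TATAAA.
Hist1h2ae to Hist1h2bg: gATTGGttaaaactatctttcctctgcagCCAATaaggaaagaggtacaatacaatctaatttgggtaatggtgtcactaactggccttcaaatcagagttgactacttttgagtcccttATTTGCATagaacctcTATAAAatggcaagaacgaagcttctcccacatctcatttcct
CCAAT lies 178 and 150 bases before the start of Hist1h2bg, ATTTGCAT 59 and TATAAA 43, and the same motifs lie 2, 30, 121 and 137 bases from the start of Hist1h2ae. Promoters (250 bases before to 50 after the start) were matched for 61 of the 67 members, and each motif was searched on both strands. CCAAT was in 52 of them (85.2%) against 37.9% of 27025 promoters, including all of the H1, H2A, H2B and H3 promoters but 3 of 12 H4 promoters. TATAAA was in 55.7% of the members' promoters against 14.2%, and ATTTGCAT in 19.7% against 1.8%, all of these in H2A (7 of 18) and H2B (5 of 15) genes. A match is a stretch of letters only.

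Back-to-back starts did not fix a common direction. There were 13 such pairs of members, including that of Hist3h2a with the pseudogene Hist3h2bb.ps, and 4 of the 13 had both genes tested. Hist1h2ae and Hist1h2bg were called higher 4 and 3 times. Hist1h2ao was called higher 3 times while its partner Hist1h2bq was called lower 2 times, Hist1h2bc was called lower 3 times while Hist1h2ac was never called, and neither Hist1h2ap nor Hist1h2br was called. Hist1h2ac and Hist1h2br are named for their position only.

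Among the other H2A genes, the highest one, Hist1h2ap, had Ki67 differences from −0.63 to 0.72 and none was called. Hist3h2a (chr11:58954685-58956830) was higher in WT Ki67+ cells at 6 months, with levels of 10.11 and 10.50 against 8.35, 9.23 and 8.95 (1.46 ± 0.41 SE, adjusted p = 0.00602, and 0.0677 without Ki67+ replicate 2). Its difference was positive in all 6 comparisons, the other 5 running from 0.07 to 0.78 and not passing. Hist2h2aa2, whose row is uncertain as it has no word of its own, gave the widest difference of any member. In WT at 12 months its levels were 6.05, 6.10, 5.57 and 6.12 in Ki67+ and 9.69, 9.69 and 9.54 in Ki67- libraries (−3.68 ± 0.53, adjusted p = 4.64e-06, and 0.00148 with the near-identical libraries counted as 1). APP/PS1 levels at 4 months were 5.72, 5.65, 6.40 and 5.90 against 7.68, 7.20, 8.69 and 8.23 (−2.04 ± 0.49, adjusted p = 0.00406), again without overlap. The WT Ki67+ levels of Hist2h2aa2 at 12 months all lay below 6.37, the lowest mean of any gene, so the size of that difference is uncertain. Its copy Hist2h2aa1, with which it shares all of its 31-base words, had differences of 0.06 and 0.02 in the same 2 comparisons.

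Among the H2B genes, Hist1h2bc (chr13:23684199-23692908, plus strand), the member with the highest level, was lower in Ki67+ cells. In WT at 4 months Ki67+ levels were 9.42, 9.58, 9.59, 9.27 and 9.49, all below the Ki67- levels of 10.39, 10.39, 10.11, 10.02 and 11.06 (−0.92 ± 0.22 SE, adjusted p = 0.00166). WT levels at 12 months were 9.16, 9.08, 8.94 and 9.37 against 10.58, 10.59 and 10.59 (−1.45 ± 0.26, adjusted p = 6.89e-05). With the near-identical libraries counted as 1, the adjusted p-values were 0.00313 and 0.00765. The APP/PS1 difference at 4 months was −0.67 ± 0.24 (adjusted p = 0.0447) with overlapping values, and the call was lost without Ki67- replicate 1, 2 or 3 or Ki67+ replicate 1 or 4 (adjusted p from 0.0558 to 0.131). The APP/PS1 difference at 6 months had the other sign (0.40) and did not pass.

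Hist1h2be (chr13:23583670-23621124, minus strand) was negative in all 6 comparisons, from −2.34 to −0.67. The widest difference, in WT at 6 months, rests on Ki67+ levels below 6.37, the lowest mean of any gene, and is uncertain in size. In WT at 4 months its Ki67+ levels were 6.43, 6.87, 5.87, 7.61 and 7.46 and its Ki67- levels 8.41, 8.42, 7.69, 7.96 and 9.30 (−1.51 ± 0.39, adjusted p = 0.00369), and in WT at 6 months 5.82 and 5.95 against 7.29, 9.56 and 7.82 (−2.34 ± 0.56, adjusted p = 0.00176). Neither pair of groups overlapped. At 12 months WT Ki67+ levels of 6.73, 6.38, 7.17 and 7.01 lay below 8.05, 8.0 and 7.99 (−1.19 ± 0.47, adjusted p = 0.0374), a call not made with the near-identical libraries counted as 1. Its annotated transcripts overlap those of Hist1h1e on the same strand and share 466 31-base words with them, so reads of that stretch belong to either gene. Hist2h2be was higher in APP/PS1 Ki67+ cells at 4 months, with levels of 7.29, 8.38, 7.24 and 7.95 against 6.69, 6.44, 6.48 and 6.62 (1.16 ± 0.40, adjusted p = 0.0375). That call was lost without any 1 of the Ki67- libraries or without Ki67+ replicate 2 or 4 (adjusted p from 0.051 to 0.109). The gene was also higher in WT at 12 months, with 7.95, 8.25, 7.71 and 7.88 against 6.06, 6.11 and 6.04 (1.88 ± 0.43, adjusted p = 0.000914), a call that held with the near-identical libraries counted as 1. At 6 months Hist1h2bn was higher (0.90 ± 0.24, adjusted p = 0.00483), having reached 7 only in this Ki67+ group, and Hist1h2bq was lower (−0.97 ± 0.33, adjusted p = 0.021) in WT Ki67+ cells, the latter not without Ki67+ replicate 2 (adjusted p = 0.3) or Ki67- replicate 2 (adjusted p = 0.052). Both were called in the same directions in WT at 12 months, Hist1h2bn by 0.94 ± 0.20 (adjusted p = 0.000528) and Hist1h2bq by −0.90 ± 0.27 (adjusted p = 0.00856), and with the near-identical libraries counted as 1 only the former.

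In the H3 class, calls went to the higher side, except that with library medians subtracted Hist1h3c and Hist1h3d were each called lower 1 time. Hist1h3e (chr13:23561534-23562369, minus strand) had WT levels at 4 months of 8.29, 7.73, 7.75, 8.08 and 7.88 in Ki67+ and 6.80, 6.83, 7.01, 6.73 and 6.96 in Ki67- libraries (1.08 ± 0.29 SE, adjusted p = 0.0055). Its APP/PS1 levels at 12 months were 8.55, 8.75, 8.44 and 8.10 against 6.01, 7.23, 7.24 and 6.51 (1.71 ± 0.33, adjusted p = 0.000645). In both, every Ki67+ library lay above every Ki67- library. Hist1h3f, which shares 606 31-base words with it, was higher in WT at 4 (0.74 ± 0.25, adjusted p = 0.0249), 6 (0.93 ± 0.37, adjusted p = 0.048) and 12 months (0.74 ± 0.31, adjusted p = 0.0499), the last not with the near-identical libraries counted as 1. Since Hist1h3f reached a mean of 7 only in Ki67+ groups, its calls are descriptions. Hist1h3c was higher in WT at 4 months (0.62 ± 0.18, adjusted p = 0.011). Hist1h3d was called in none, with differences from −0.73 to 0.68.

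Among the H4 genes, Hist1h4j (chr13:21735064-21735837, plus strand) was higher in Ki67+ cells in 4 comparisons, and its Ki67+ and Ki67- levels did not overlap in any of the 6. It reached a mean of 7 only in WT Ki67+ cells at 6 and 12 months, so its Ki67 calls are descriptions. Its WT levels were 6.86, 7.16, 6.85, 7.14 and 6.96 in Ki67+ and 6.28, 6.29, 6.22, 6.06 and 6.14 in Ki67- cells at 4 months, 7.31 and 7.04 against 6.05, 6.07 and 6.06 at 6 months, and 7.26, 7.14, 6.82 and 8.0 against 5.99, 6.00 and 5.97 at 12 months. No groups overlapped at any age. The differences were 0.80 ± 0.20 (SE, adjusted p = 0.00282), 1.12 ± 0.28 (adjusted p = 0.0032) and 1.32 ± 0.24 (adjusted p = 7.62e-05), and with the near-identical libraries counted as 1 those at 4 and 12 months had adjusted p-values of 0.00412 and 0.00802. APP/PS1 levels at 12 months were 6.97, 7.10, 7.16 and 6.41 against 5.78, 5.75, 6.04 and 5.98 (1.02 ± 0.22, adjusted p = 0.00204). All of its WT Ki67- levels, 5.97 to 6.29, lay below the 5th percentile of the gene means. The H4 gene with the highest level, Hist1h4d, was never called, with differences from −1.17 to 0.38, and neither was Hist4h4, with differences from −0.44 to 0.39.

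Hist1h4n (chr13:21831767-21832196, minus strand) was lower in Ki67+ cells in 5 of the 6 comparisons, more often than any other member in either direction, but its row is uncertain because its copy Hist1h4m shares most of its words. In WT at 12 months its levels were 5.84, 5.90, 5.60 and 6.24 in Ki67+ and 7.64, 7.66 and 7.71 in Ki67- libraries (−1.77 ± 0.26, adjusted p = 4.8e-06, and 0.0015 with the near-identical libraries counted as 1). In APP/PS1 at 12 months they were 6.54, 6.77, 6.34 and 6.61 against 7.99, 8.21, 7.85 and 8.10 (−1.47 ± 0.24, adjusted p = 0.000114). The groups did not overlap in these or in the other 3 called comparisons, where the differences were −1.27 ± 0.21 in WT at 4 months (adjusted p = 5.61e-05), −0.99 ± 0.24 in APP/PS1 at 4 months (adjusted p = 0.00389) and −1.84 ± 0.31 in WT at 6 months (adjusted p = 4.97e-05). In APP/PS1 at 6 months the difference was −0.30 and did not pass. The WT Ki67+ levels of Hist1h4n at 12 months all lay below 6.37, the lowest mean of any gene, so the size of that difference is uncertain. Its copy Hist1h4m, with the same protein and the same stem-loop, was higher in WT Ki67+ cells at 4 months (0.62 ± 0.19, adjusted p = 0.0145) and at 12 months, where levels were 7.28, 7.14, 7.37 and 7.20 against 6.03, 6.03 and 6.01 (1.22 ± 0.23, adjusted p = 0.000128), the Ki67+ group being the only one in which it reached 7.

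**Figure D4:**
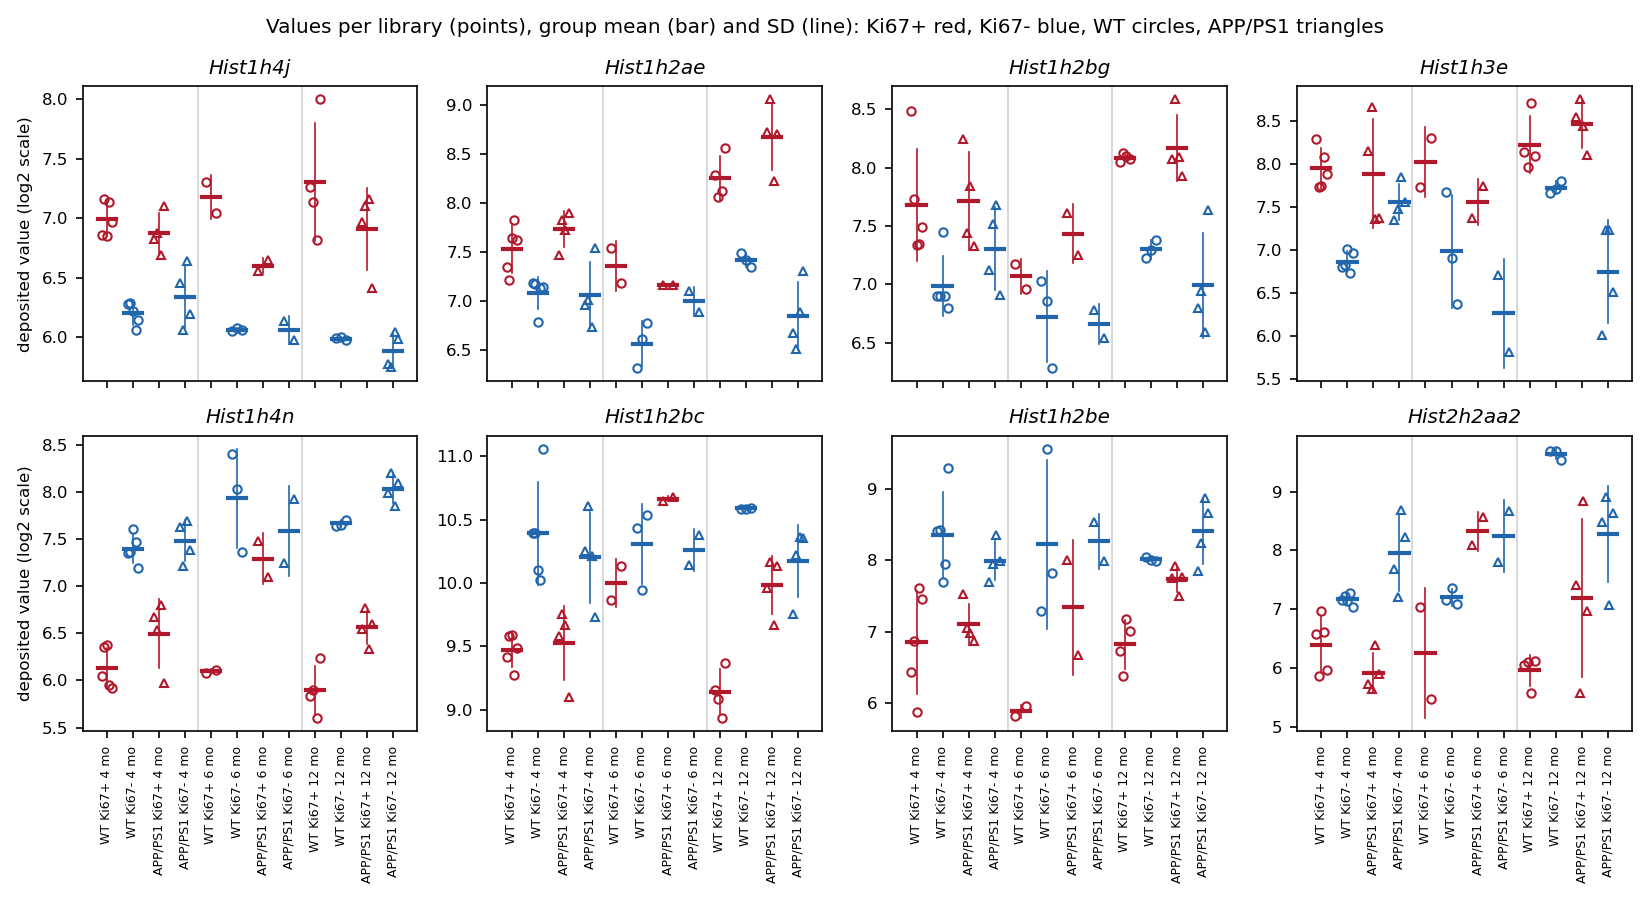
Levels of 8 histone genes in each library (points, log2 scale), with the group mean (bar) and SD (line), for the 12 groups along the x axis (Ki67+ red, Ki67- blue, WT circles, APP/PS1 triangles). In the upper row Ki67+ libraries lie higher in most pairs of groups, and in the lower row lower. At 12 months in WT none of the 8 genes shows overlapping Ki67+ and Ki67- values, as for 31 of the 39 tested genes. The share over all genes was not computed, so this is a description only. The WT Ki67- libraries of that age are near-identical.

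An alternative added after the data were seen averaged the log2 levels of pairs of genes that share many 31-base words (341 to 1973). Some calls remained and others did not. Such an average is not the pooled signal of a pair, so it does not settle how reads are split. The average of Hist1h3e and Hist1h3f was higher in Ki67+ cells in 5 of 6 comparisons, with differences from 0.36 to 1.15, the exception being APP/PS1 at 4 months (adjusted p = 0.26). The average of Hist1h4m and Hist1h4n, whose single rows went in opposite directions, was lower in 2, WT at 6 months (−0.73 ± 0.21 SE, adjusted p = 0.00656) and APP/PS1 at 12 months (−0.47 ± 0.16, adjusted p = 0.0387). In WT at 12 months it was −0.27 ± 0.17 (adjusted p = 0.198), against 1.22 and −1.77 for the single rows. The average of Hist2h2aa1 and Hist2h2aa2 was lower in APP/PS1 at 4 months (−1.01 ± 0.30, adjusted p = 0.0175) and WT at 12 months (−1.81 ± 0.33, adjusted p = 7.09e-05). That of Hist1h1e and Hist1h2be was lower in WT at 4 months (−1.03 ± 0.26, adjusted p = 0.0028) and WT at 6 months (−1.58 ± 0.37, adjusted p = 0.00149). These 2 are overlapping neighbours of different classes, not copies. By limma no average of Hist1h2ao with Hist1h2ap (0.0521 the lowest adjusted p) or of Hist1h2bq with Hist1h2br (0.129 the lowest) passed. Of the 12 tested members with under 20% of 31-base words of their own, 9 were called in a Ki67 comparison, against 5 of 7 with 20% to under 50% and 10 of 20 with 50% or more. Over all genes tested, 29.7% were never called.

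**Figure D5:**
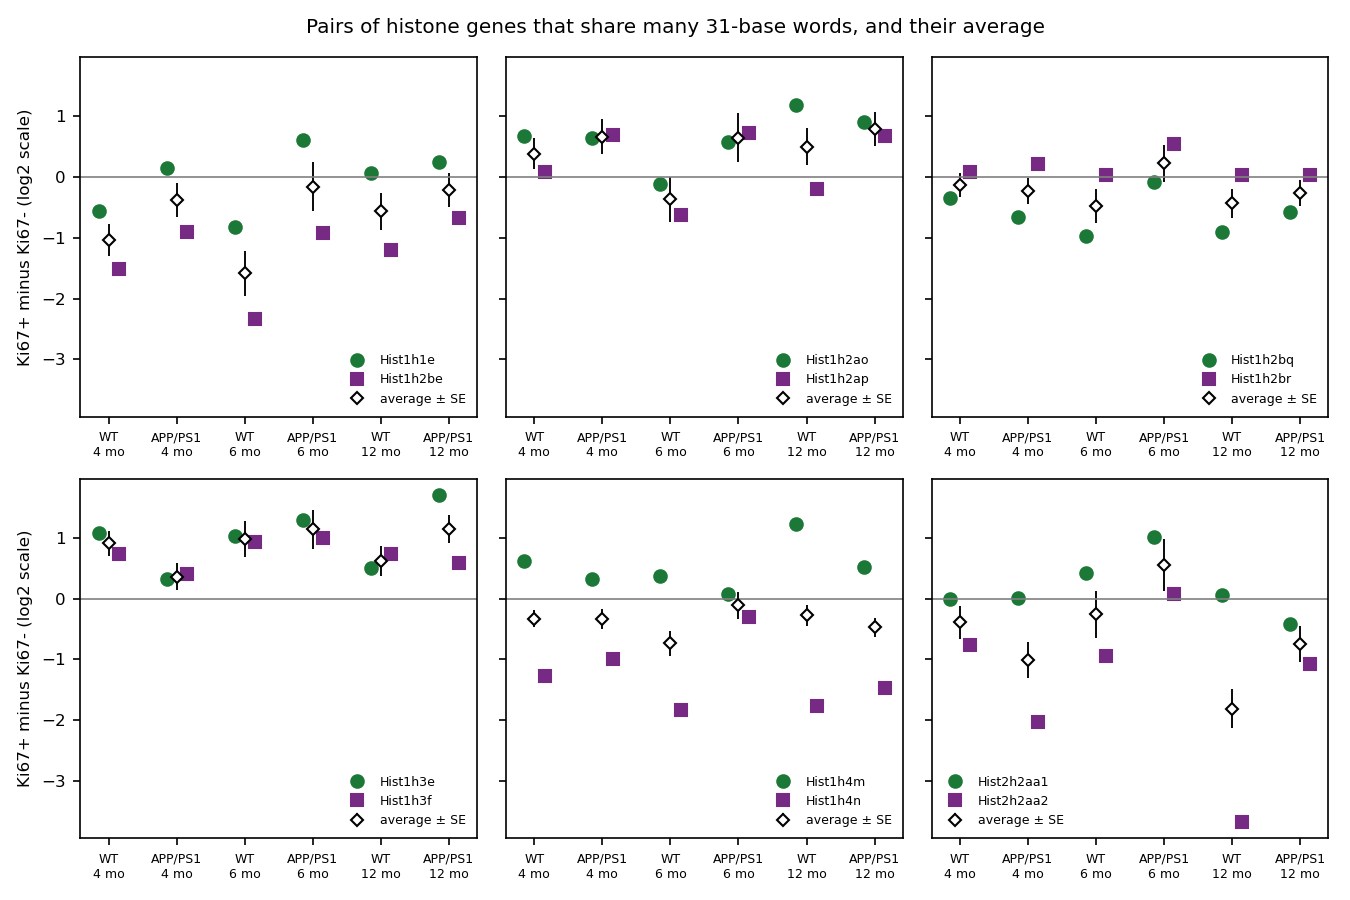
Difference Ki67+ minus Ki67- (y axis, log2 scale) for 6 pairs of histone genes with shared sequence (circles and squares) and for their average (diamonds, with SE) in the 6 genotype and age comparisons (x axis). Hist1h4m lies above 0 and Hist1h4n below 0 in every comparison, while both Hist1h3e and Hist1h3f lie above 0.

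The second comparison asked where the genotypes differed within 1 age and Ki67 state. At 4 months limma called no member in Ki67+ cells (0.0268% of all genes called, 1 member with an unadjusted p under 0.05) or in Ki67- cells (0% of all genes, 2 members), and at 6 months none in Ki67- cells (0.0604%, 1 member). In Ki67+ cells at 6 months 2 were called (9.87% of all genes). Hist1h4n was higher in APP/PS1, with levels of 7.49 and 7.10 against 6.08 and 6.12 (1.20 ± 0.34 SE, adjusted p = 0.0219), and Hist3h2a lower, with 8.83 and 8.90 against 10.11 and 10.50 (−1.43 ± 0.44, adjusted p = 0.0386). With 2 libraries a side neither was stable. Hist1h4n was not called without WT replicate 1 (adjusted p = 0.0713), WT replicate 2 (0.0868) or APP/PS1 replicate 1 (0.184), and Hist3h2a not without any 1 of the 4 libraries (0.0598 to 0.212). The counts were 0 without WT replicate 2 or APP/PS1 replicate 1 and 1 without APP/PS1 replicate 2.

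In Ki67+ cells at 12 months 2 were called (9.77% of all genes). Hist1h1b was lower in APP/PS1, with 6.61, 6.39, 6.51 and 6.82 against 7.59, 7.63, 7.50 and 7.40 (−0.95 ± 0.22, adjusted p = 0.00724). Hist1h2bc was higher, with 9.96, 10.17, 9.67 and 10.14 against 9.16, 9.08, 8.94 and 9.37 (0.85 ± 0.24, adjusted p = 0.0261). Neither gene's groups overlapped, but the call of Hist1h2bc was lost, leaving 1, without WT replicate 2 (adjusted p = 0.0518), WT replicate 3 (0.0641) or APP/PS1 replicate 4 (0.0625), and was also lost without APP/PS1 replicate 2 (0.0624).

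In Ki67- cells at 12 months 4 were lower in APP/PS1 (16.4% of all genes called in either direction). The H3 gene Hist1h3c had levels of 6.01, 6.47, 6.50 and 6.08 against 7.48, 7.53 and 7.57 in WT (−1.26 ± 0.22 SE, adjusted p = 0.000356), and the H2B gene Hist1h2bj 6.41, 6.64, 6.56 and 6.34 against 7.48, 7.53 and 7.59 (−1.05 ± 0.23, adjusted p = 0.00231), a gene that reached 7 in this WT group alone. Hist2h3c2 (−0.73 ± 0.19, adjusted p = 0.0112) and Hist1h4i (−1.18 ± 0.33, adjusted p = 0.0152) completed the 4. None of the 4 had overlapping values. Hist1h3c and Hist2h3c2 reached 7 only in the WT groups at 12 months, so their calls here are descriptions. The WT group is the one of 3 near-identical libraries, and with these counted as 1 sample only Hist1h3c was called (adjusted p = 0.0429, 1.82% of all genes), with Hist1h2bj at 0.101 and Hist2h3c2 at 0.206. Without APP/PS1 replicate 4 the count was 7.

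A further comparison set 12 against 4 months, and shares libraries with the comparisons above. In WT Ki67+ cells limma called no member (0.993% of all genes, 4 members with an unadjusted p under 0.05). In WT Ki67- cells 6 were higher at 12 months (12.2% of all genes called), among them Hist1h3c (1.36 ± 0.21 SE, adjusted p = 0.000217), Hist2h2aa2 (2.48 ± 0.51, adjusted p = 0.00241) and Hist1h2bj (0.95 ± 0.22, adjusted p = 0.00547). At 4 months the levels of Hist1h3c were 6.12, 6.13, 6.42, 6.05 and 6.14, all below those at 12 months. Hist1h3c reached 7 only in the WT groups at 12 months and Hist1h2bj only in this 12-month group, so both calls are descriptions. The count was 3 without any 1 of the 12-month libraries. With the near-identical libraries counted as 1 sample limma called none of the 6 (0.221% of all genes), the lowest adjusted p of the 3 named being 0.0791 for Hist1h3c.

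In APP/PS1 Ki67+ cells 1 member was called (5.41% of all genes), Hist1h2ae, with levels of 8.73, 9.06, 8.22 and 8.70 at 12 months against 7.47, 7.82, 7.73 and 7.90 at 4 months (0.95 ± 0.23, adjusted p = 0.0147, and 0.0545 without 12-month replicate 2). The count was 2 without 4-month replicate 1, 4-month replicate 3 or 12-month replicate 3. In APP/PS1 Ki67- cells 1 was called (4.11% of all genes), the H1 gene Hist1h1c, with 10.18, 10.92, 10.76 and 10.32 against 9.40, 9.66, 10.03 and 9.25 (0.96 ± 0.28, adjusted p = 0.0449). This call was lost without 4-month replicate 1, 2 or 4 or 12-month replicate 2 or 3 (adjusted p from 0.0602 to 0.119), with a count of 0 without 4-month replicate 1, 2 or 4 or 12-month replicate 3 and of 2 without 12-month replicate 1.

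The difference of the Ki67 difference between genotypes was tested at each age. limma called no member at 4 months (0% of all genes, 0 members with an unadjusted p under 0.05) or at 6 months (2.86%, 5 members), where 2 were called without APP/PS1 Ki67- replicate 2 and 1 without WT Ki67- replicate 3. At 12 months 2 were called (8.01% of all genes). The Ki67 difference of Hist2h2aa2 was 2.59 ± 0.72 (SE) higher in APP/PS1 than in WT (−1.08 against −3.68, adjusted p = 0.027), and that of Hist1h2bc 1.26 ± 0.35 higher (−0.19 against −1.45, adjusted p = 0.0284). The APP/PS1 Ki67+ levels of Hist2h2aa2 spread from 5.56 to 8.84. The count was 0 without WT Ki67- replicate 1 or 2, 1 without WT Ki67- replicate 3 and 5 without APP/PS1 Ki67- replicate 4. With the near-identical libraries counted as 1 sample neither was called by limma (adjusted p = 0.181 and 0.186, 0.329% of all genes).

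Other genes of the histone pathway came from lists chosen with earlier results of these data known, and their counts stand beside 19.3%, 12.3%, 17.8%, 5.21%, 26.2% and 10.6% of all genes higher and 14.5%, 9.24%, 19%, 2.6%, 20.1% and 7.24% lower in the 6 comparisons. Of the 18 genes for processing and decay of histone mRNA, 0 to 2 were higher and 1 to 5 lower in Ki67+ cells across the 6 comparisons. Slbp, which binds the stem-loop, was higher in 3, WT at 4 months (log2 difference 0.89 ± 0.23 SE, adjusted p = 0.00375), APP/PS1 at 4 months (0.81 ± 0.25, adjusted p = 0.0234) and APP/PS1 at 12 months (0.80 ± 0.25, adjusted p = 0.0291). Coil, which encodes the marker protein of Cajal bodies, was lower in all 6 (−2.12 to −0.82). Of the 10 tested genes for replication-independent variants, 0 to 4 were higher and 0 to 3 lower. H2afz, which encodes the variant H2A.Z, was higher in 5, with differences from 1.23 to 2.24, and at 1.12 (adjusted p = 0.0587) in APP/PS1 at 6 months. Of the 16 tested histone chaperone and acetyltransferase genes, 0 to 3 were higher and 0 to 4 lower, with Hat1 and Rbbp4 higher in 4 and Nap1l1 lower in 4. Of the 24 S phase genes, 7, 7, 2, 1, 11 and 3 were higher and 2, 0, 3, 1, 7 and 0 lower, in the order of comparisons above. Gins2 (2.99 ± 0.38) and Mcm3 (2.15 ± 0.32) were higher in WT at 12 months, and Cdt1 was lower in 3 comparisons. For these lists and the markers below, WT results at 4 and 12 months were not recomputed with near-identical libraries counted as 1 sample.

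Markers of other cell types moved with the Ki67 state too. In each library the mean level of 8 microglial markers was high, 12.34 to 13.83 in Ki67+ and 13.16 to 14.03 in Ki67- libraries, but 7 of the 8 were lower in WT Ki67+ cells at 6 months. Of 8 astrocyte markers, 7, 7, 3, 4, 7 and 7 were higher in Ki67+ cells in the 6 comparisons, their library means running from 8.81 to 11.05 against 7.45 to 8.60. All 8 oligodendrocyte markers were higher in APP/PS1 Ki67+ cells at 6 months, and oligodendrocyte means ran from 7.99 to 13.15 in Ki67+ and from 8.79 to 11.55 in Ki67- libraries. Means of 8 neuronal (6.21 to 8.46 against 6.92 to 7.48), 6 endothelial (6.34 to 8.38 against 6.94 to 8.0) and 6 peripheral immune markers (6.71 to 8.82 against 6.65 to 8.29) overlapped when all ages and genotypes were pooled. Within the 6 comparisons, however, astrocyte means did not overlap and were above those of Ki67- libraries in all 6. Neuronal means were above without overlap in 4 (both genotypes at 4 and 12 months) and below in 1 (WT at 6 months). In WT at 4 months, for example, they ran from 7.82 to 8.46 against 7.16 to 7.38. Oligodendrocyte means were above without overlap in 1 (APP/PS1 at 6 months) and below in 2 (both genotypes at 12 months), endothelial means were above in 1 (APP/PS1 at 12 months), and immune means overlapped in all 6. Across the 6 comparisons, 1 to 4 of the neuronal markers were higher and 0 to 5 lower, 0 to 2 of the endothelial markers were higher and 0 to 3 lower, and 0 to 2 of the 5 tested immune markers were higher and 0 to 1 lower. The part of these cells in the histone differences was not tested, and in bulk libraries fewer cells of a type and less RNA per cell cannot be told apart.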

How the data were processed

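RNA-seq was made from 42 libraries of up to 400 sorted, fixed microglia each, read for 75 bases. Per the labels and methods, the authors used bcl2fastq 2.20 and kallisto 0.43.1 on GRCm38, normalized with DESeq2 and took out 10 surrogate variables. What was deposited by the authors is a log2-like score per gene, not a count, so no count model was used, depth is unknown and precision rests on the number of libraries.

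The 14910 of 19151 genes that reached a mean of 7 in any group were fitted with limma 3.58.1 (R 4.3.3) as 12 group means. The 42 columns had rank 32, so 10 degrees of freedom were counted as spent, leaving 20 residual and 6.94 prior degrees of freedom. Two-sided p-values were Benjamini-Hochberg adjusted at 0.05. The scripts were tested on simulated data. Named members were the up to 3 highest per class and, per comparison, up to 3 called per direction by lowest p. The members and lists were chosen with earlier results of these data known. Alternatives were no filter, a mean of 8, unspent degrees of freedom, eBayes with trend and robust options, library medians subtracted, fits within 1 age and leaving out each library, plus 3 added after seeing the data: leaving out the 6-month libraries, averaging copies, and counting near-identical libraries as 1 sample. Sequences came from GENCODE M21 and RefSeq GRCm38.p6 (Python 3.11.15). Hist1h2aj, Hist1h2al and Hist1h2ba were not analysed here.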

Additional observations from a re-analysis of the deposited data

Results flagged for a closer look

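In 11 of 189 combinations of a named histone gene with a group of 4 or 5 libraries, 1 library stood far from the rest (chance flags about 1 in 20). In WT Ki67- at 4 months, replicate 3 stood apart for Hist1h2ae (6.79, the others 7.13 to 7.18), Hist1h2bg (7.45, the others 6.80 to 6.90), Hist1h3c (6.42, the others 6.05 to 6.14) and Hist1h4i (8.02, the others 7.03 to 7.26), and replicate 4 for Hist1h4d (7.46, the others 7.93 to 8.03). This group holds the pair of near-identical libraries. Hist1h2bj was high in APP/PS1 Ki67- replicate 3 at 4 months (6.99, the others 6.36 to 6.46), and Hist2h3c2 in APP/PS1 Ki67+ replicate 4 at 4 months (6.71, the others 6.30 to 6.35).

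At 12 months, Hist1h2ap was high in APP/PS1 Ki67- replicate 2 (9.83, the others 9.26 to 9.35) and its class member Hist2h2aa1 in WT Ki67+ replicate 4 (9.30, the others 8.80 to 8.87). Hist2h2aa2 was low in WT Ki67+ replicate 3 (5.57, the others 6.05 to 6.12), and Hist1h4m was high in APP/PS1 Ki67- replicate 3 (6.94, the others 6.08 to 6.15), within the range of APP/PS1 Ki67+ cells.

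The Ki67 difference at 12 months differed between genotypes for Hist2h2aa2 (by 2.59 log2 units) and Hist1h2bc (by 1.26), by the interaction term of limma. Both calls were lost with the near-identical WT libraries counted as 1 sample.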

How the results depend on the processing

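The counts of histone genes called in each comparison moved between settings. The differences themselves are differences of group means. They could not change where only the filter, the degrees of freedom, the eBayes options or the ages fitted were altered. All-gene counts were computed only for library medians subtracted and for near-identical libraries counted as 1 sample. In the other settings below, a change in the histone counts cannot be told from a change over all genes. Of the 42 named differences, 30 kept their call after leaving out every library in turn and 12 lost it at least once. Without the filter on means, lower calls in WT came to 5 at 4 months and 10 at 6 months, and higher calls in WT at 12 months to 15. In that setting the genotype counts were 5 (Ki67+, 6 months), 7 (Ki67+, 12 months) and 7 (Ki67-, 12 months), the age counts 1 (WT Ki67+) and 2 (APP/PS1 Ki67+), and the interaction at 12 months 7. With a mean of at least 8 required, fewer members were tested, and higher calls were 2, 2 and 3 in WT at 4, 6 and 12 months and 3 in APP/PS1 at 12 months, genotype counts at 12 months were 1 (Ki67+) and 2 (Ki67-), and age counts 3 (WT Ki67-) and 2 (APP/PS1 Ki67+).

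With the 10 removed directions not counted as spent, lower calls were 5 and 8 in WT at 4 and 6 months, and APP/PS1 had 8 higher and 6 lower calls at 4 months, 4 higher and 1 lower at 6 months, and 10 higher with 4 lower at 12 months. The genotype counts were 6 (Ki67+, 6 months), 8 (Ki67+, 12 months) and 12 (Ki67-, 12 months), the age counts 1 and 11 (WT Ki67+ and Ki67-) and 6 and 4 (APP/PS1 Ki67+ and Ki67-), and the interaction 2 at 6 months and 11 at 12 months. With trend and robust options the APP/PS1 Ki67+ age count was 2. With library medians subtracted, higher calls were 4 in WT and 1 in APP/PS1 at 4 months, and lower calls in APP/PS1 were 5 at 4 months and 3 at 12 months. Fits within 1 age gave 5 lower in WT and 6 lower in APP/PS1 at 4 months, 1 higher in APP/PS1 at 6 months, 11 higher and 4 lower in APP/PS1 at 12 months, 11 and 10 genotype calls in Ki67+ and Ki67- cells at 12 months, and 13 for the interaction.

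Without the 6-month libraries there were 6 higher and 6 lower in APP/PS1 at 4 months, 8 and 2 at 12 months, and age counts of 1 (WT Ki67+), 3 (APP/PS1 Ki67+) and 3 (APP/PS1 Ki67-). With near-identical libraries counted as 1 sample, 5 were higher and 3 lower in WT at 12 months, and the Ki67- genotype, WT Ki67- age and interaction counts at 12 months were 1, 0 and 0. The difference of Hist1h4m in WT at 12 months turned to −0.27 when averaged with Hist1h4n. The cause of these changes was not tested, beyond the fewer genes or samples of a setting.

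Leaving out 1 library at a time, higher and lower calls ranged over 6 to 9 and 3 to 5 in WT at 4 months, 1 to 3 and 2 to 5 in APP/PS1 at 4 months, 4 to 6 and 2 to 5 in WT at 6 months, 0 to 1 and 0 to 0 in APP/PS1 at 6 months, 7 to 8 and 7 to 9 in WT at 12 months, and 4 to 6 and 1 to 2 in APP/PS1 at 12 months. Genotype counts ranged over 0 to 2 (Ki67+, 6 months), 1 to 3 (Ki67+, 12 months) and 3 to 7 (Ki67-, 12 months), age counts over 3 to 6 (WT Ki67-), 1 to 2 (APP/PS1 Ki67+) and 0 to 2 (APP/PS1 Ki67-), and interaction counts over 0 to 2 at 6 months and 0 to 5 at 12 months. Where this left 1 library in a group of 2, that library was assumed to vary like the other groups. No paired analysis was possible because the labels give no mouse or replicate number that links the groups. Depth is unknown, so low levels near the floor of the table cannot be given a limit.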
